A study of Mus musculus with 6 samples.

Results

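The 7 chemokine genes Ccl8, Ccl7, Ccl2, Ccl6, Ccl24, Pf4 and Cxcl1 were followed across cell classes and libraries of mouse testis, as 7 of the 30905 genes counted. They were taken by symbol. Ccl8, Ccl7 and Cxcl1 had been picked because they differed between smoke-exposed and control mice, so their group values are given as a description with no test, whereas Ccl2, Ccl6, Ccl24 and Pf4 were tested. Testis cells of male ICR mice, an outbred stock, were captured in droplets and sequenced cell by cell, in 3 smoking and 3 control libraries. Smoking mice spent 30 minutes a day for 12 weeks in a chamber with the smoke of 15 cigarettes per session (1.1 mg nicotine and 11 mg tar per cigarette, 3.47 mg/m3 of smoke), after purchase at 6 weeks of age and 1 week of adaptation. Control mice were held in the chamber daily with no smoke. The age label reads 8 weeks, which differs from that schedule. Left testes were used and dead cells were depleted from the suspensions of both groups. Each group had 7 mice, and the labels do not tie a library to a mouse, so each p-value speaks of the spread among libraries, which may be technical.

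Chemokines are small secreted proteins that bind receptors on leukocytes and steer where these cells go. CC chemokines such as Ccl2, Ccl7 and Ccl8 mainly attract monocytes and other mononuclear cells, whereas CXC chemokines such as Cxcl1 attract neutrophils. Macrophages are the most abundant immune cells of the testis, where they lie among the Leydig cells of the interstitium and around the tubules, and they are known for a tolerant, low-inflammation state.

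Ccl2, Ccl7 and Ccl8 lie on the plus strand within 81229 bases of chromosome 11 (GRCm38, chr11:82035571-82116799), a span that also holds Ccl11 and Ccl12. Ccl6 lies on the minus strand of the same chromosome (chr11:83587882-83593087), and Pf4 (chr5:90772435-90773383, plus strand), Cxcl1 (chr5:90891241-90893115, plus strand) and Ccl24 (chr5:135569937-135573049, minus strand) lie on chromosome 5. Ccl2 overlaps the gene Gm17268 and Ccl6 overlaps E230016K23Rik, both on the opposite strand. Whether counting used the strand is not stated by the labels or headers read here. Whether any UMIs of the antisense partners were counted for Ccl2 or Ccl6 was not checked.

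The 250 bases upstream of the RefSeq start (GRCm38.p6) are shown for the member with the widest gap between groups in macrophages, for a macrophage member with nearly equal group levels, and for the member found mainly outside macrophages. Capitals mark a TATA box (TATAAA) in Ccl8 and kappa B motifs (GGG, then 5 bases of any kind, then CC) in Cxcl1, both searched on both strands, and the windows are chr11:82114935-82115184 (plus), chr5:90772185-90772434 (plus) and chr5:90890995-90891244 (plus), in the order printed.
Ccl8: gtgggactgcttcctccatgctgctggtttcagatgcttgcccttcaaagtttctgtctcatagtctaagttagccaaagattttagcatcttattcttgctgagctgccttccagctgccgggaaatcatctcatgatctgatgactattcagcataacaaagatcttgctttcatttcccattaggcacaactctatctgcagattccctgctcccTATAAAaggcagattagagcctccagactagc
Pf4: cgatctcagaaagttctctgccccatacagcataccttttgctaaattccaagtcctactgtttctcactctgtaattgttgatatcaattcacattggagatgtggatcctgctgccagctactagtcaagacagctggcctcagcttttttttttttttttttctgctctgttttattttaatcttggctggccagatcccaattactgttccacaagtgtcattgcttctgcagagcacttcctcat
Cxcl1: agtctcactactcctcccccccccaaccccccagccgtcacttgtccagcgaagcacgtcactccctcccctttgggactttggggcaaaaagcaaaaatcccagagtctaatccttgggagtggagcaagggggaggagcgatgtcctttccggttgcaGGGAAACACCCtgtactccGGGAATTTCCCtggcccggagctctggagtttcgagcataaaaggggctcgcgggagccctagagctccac

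Each capital run in Cxcl1 is a plus-strand match and a minus-strand match shifted by 1 base. Among 32851 promoter windows of this length, 45.8% held the kappa B motif and 12.4% held TATAAA. The AP-1 motif TGANTCA, held by 6.75% of the windows, was not found in these 3 or in that of Ccl6, the fourth member with a window in the table.

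The 6 libraries held 48004 retained barcodes, with 34355537 to 70460158 UMIs (unique molecular identifiers, each marking a captured RNA molecule) per library. One cluster of 410 barcodes was macrophage-like, with 12 of 13 macrophage markers, and held 57, 77 and 66 barcodes in smoking libraries 1 to 3 and 69, 60 and 81 in control libraries 1 to 3. A cluster of 291 mesenchymal-like barcodes held 58, 63 and 42 in smoking libraries and 47, 28 and 53 in control libraries. Macrophage-like barcodes made up 0.818% ± 0.117 of smoking libraries and 0.893% ± 0.142 of control libraries (SD, n = 3, exact permutation p = 0.6), and mesenchymal-like barcodes 0.672% ± 0.162 and 0.545% ± 0.172 (SD, n = 3, exact permutation p = 0.5), in a design whose smallest p is 0.1. In counts over genes, smoking library 1 and control library 3 were the closest pair of all (chi-square per degree of freedom 10.1, against 18.3 and 27.8 between control library 3 and the other two control libraries). Pairs of libraries shared 16 to 34 cell barcodes.

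Of the 7 chemokines, 6 were macrophage transcripts in this testis. The macrophage-like cluster, with 0.668% of all UMIs, held 96.3% of the 3131 Ccl8 UMIs, 92.8% of 445 Ccl7 UMIs, 91.4% of 927 Ccl2 UMIs, 92.3% of 336 Ccl24 UMIs, 97.4% of 2027 Pf4 UMIs and 78.0% of 91 Ccl6 UMIs. Cxcl1 was the exception: 3.49% of its 1260 UMIs were in macrophage-like barcodes and 57.4% in Leydig-like barcodes, the steroid-producing cells of the interstitium. These shares are drawn in the stacked bars by cell class. Chemokine and chemokine receptor genes were left out of the genes used for clustering.

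**Figure D1:**
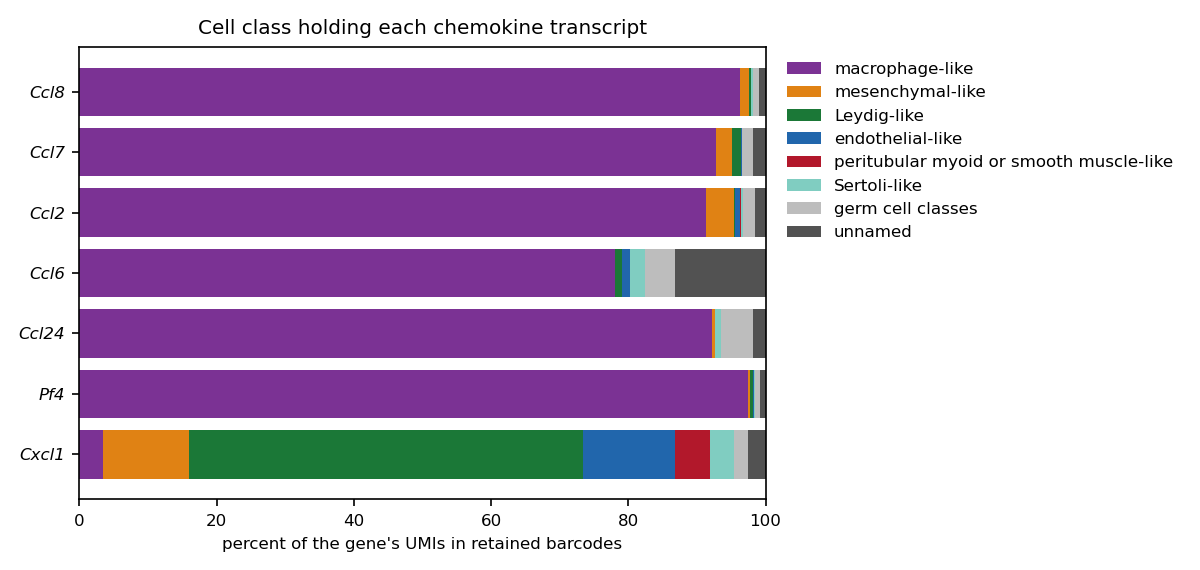
Percent of each gene's UMIs (horizontal axis) held by each cell class over all retained barcodes of 6 libraries, 1 bar per gene. Macrophage-like barcodes hold 78.0% to 97.4% of the UMIs of 6 genes and 3.49% of those of Cxcl1.

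Within the cluster, 74.9% of barcodes had a Pf4 UMI and 55.4% a Ccl8 UMI, at a median of 4383 UMIs per barcode. In germ cell classes, which should lack both, the shares were 0.0877% and 0.197% of 13684 barcodes at a median of 3540 UMIs. Outside macrophages, Ccl8 was seen in 1 of 291 mesenchymal-like barcodes, and that barcode, of smoking library 3, held all 41 mesenchymal Ccl8 UMIs. Of the 6 macrophage members, Ccl2 had 38 UMIs in 6 mesenchymal-like barcodes, where its level averaged 29.1 ± 34.1 CPM (UMIs of the gene per 1000000 UMIs of the sum), against 441 ± 160 in macrophage-like sums (SD, n = 6 libraries). The mesenchymal and endothelial levels of Ccl2 (3.68 ± 5.75) overlapped between libraries. Ccl6 had no UMI in mesenchymal-like barcodes and 12 of its 91 UMIs in unnamed clusters.

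Ccl8 encodes a monocyte chemoattractant that in the mouse acts through Ccr8. In macrophage-like sums it stood at 1098, 3193 and 2186 CPM in smoking libraries 1 to 3, against 372, 391 and 1011 CPM in control libraries 1 to 3. The groups did not overlap, but smoking library 1 lay just above control library 3. The fold was 1.93 on the log2 scale (SE 0.35, edgeR), with means of 2159 ± 1048 CPM in smoking and 591 ± 364 CPM in control libraries (SD, n = 3 each). The lowest fold with 1 library left out was 1.59, without smoking library 2, and the highest 2.59, without control library 3.

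Ccl7, which attracts monocytes through Ccr2, was at 304, 214 and 277 CPM in smoking libraries and at 148, 105 and 184 CPM in control libraries. Here too the groups did not overlap, with smoking library 2 nearest to control library 3. The log2 fold was 0.90 (SE 0.23), with means of 265 ± 46.6 CPM in smoking and 146 ± 39.5 CPM in control libraries (SD, n = 3 each). Ccl8 and Ccl7 were the members without overlap in macrophage-like sums, 2 of 7, both higher in smoking libraries. Of the 5393 genes tested, 11.2% had no overlap, 3.08% higher and 8.16% lower in smoking libraries. Since these 2 were picked on this contrast, the count supports nothing.

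**Figure D2:**
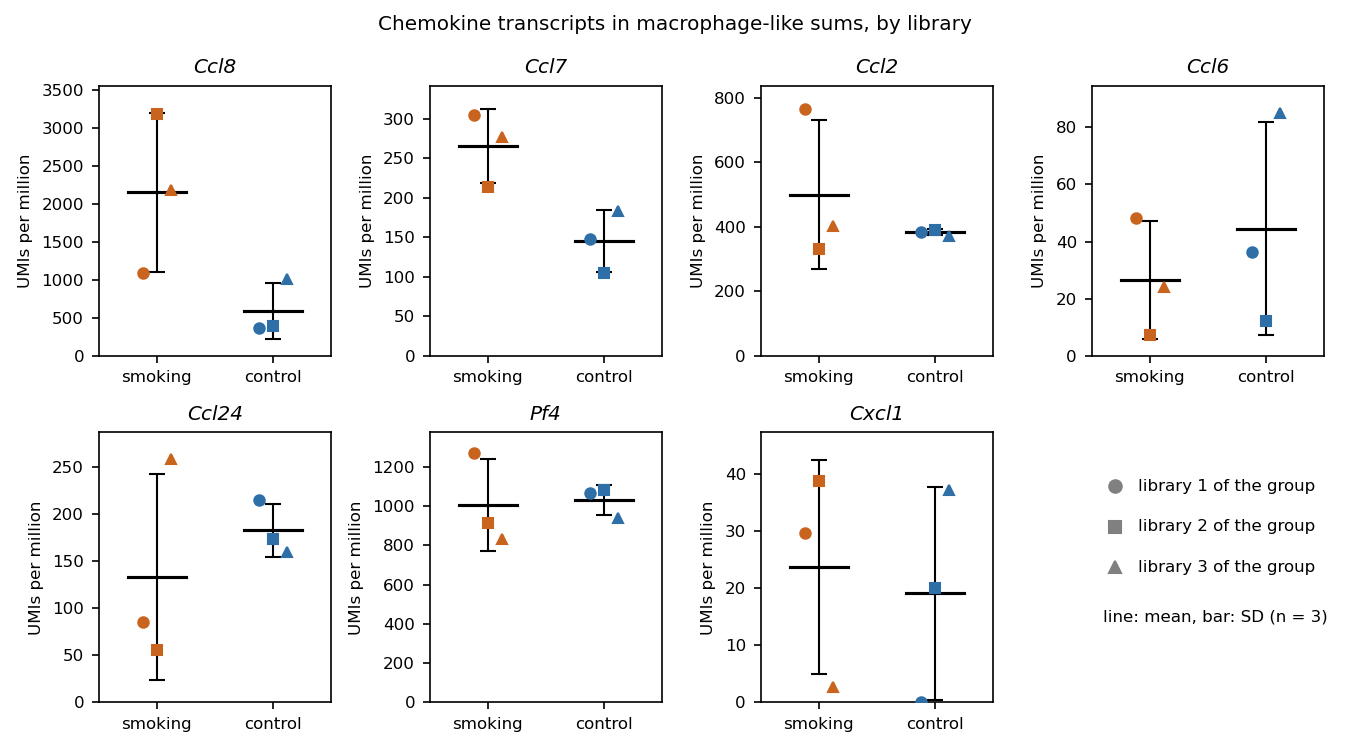
CPM of each member in macrophage-like sums (vertical axis, from 0), with 1 point per library, smoking on the left and control on the right of each panel, mean lines and SD bars (n = 3). Smoking libraries lie above control libraries for Ccl8 and Ccl7, and the groups overlap for the other 5 genes.

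Ccl2, the main ligand of Ccr2 and the signal that draws monocytes out of the blood, was at 764, 332 and 403 CPM in smoking libraries and 385, 391 and 372 CPM in control libraries. Only smoking library 1 stood clearly above the rest, and smoking library 2 was the lowest of all 6. The log2 fold of 0.44 (SE 0.24) did not pass the threshold (edgeR adjusted p = 0.958), and it was 0.04 without smoking library 1.

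Pf4 (Cxcl4), known from platelets and carried also by tissue macrophages, was at 1273, 912 and 831 CPM in smoking libraries and 1067, 1083 and 942 CPM in control libraries. The groups overlapped fully, with a log2 fold of 0.03 (SE 0.17, edgeR adjusted p = 0.987). Smoking library 2, with the highest Ccl8, was among the 3 lowest for Pf4.

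Ccl24 (eotaxin-2), an eosinophil attractant acting through Ccr3, was at 85.3, 55.8 and 258 CPM in smoking libraries and 214, 173 and 160 CPM in control libraries. Smoking libraries 1 and 2 were the lowest and smoking library 3 the highest of all, so the groups overlapped and the log2 fold of -0.34 (SE 0.37) did not pass (edgeR adjusted p = 0.958). That library decided the value: without smoking library 3 the log2 fold was -1.37 (SE 0.25, edgeR adjusted p = 0.0114), and without smoking library 2 it was 0.09.

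Ccl6, a mouse CC chemokine that binds Ccr1, was at 48.2, 7.28 and 24.2 CPM in smoking libraries and 36.2, 12.1 and 85.1 CPM in control libraries. It rested on few molecules, with 13, 3 and 9 UMIs against 11, 3 and 32, and 15 of the 32 in control library 3 were in 1 barcode. The log2 fold was -0.93 (SE 0.55, edgeR adjusted p = 0.958), and 0.04 without control library 3.

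In macrophage-like sums Cxcl1 had 29.7, 38.8 and 2.69 CPM in smoking libraries and 0, 20.1 and 37.2 CPM in control libraries, from 0 to 16 UMIs per library, with a log2 fold of 0.29 (SE 0.71). The 0 of 69 barcodes in control library 1 allows a share of barcodes with a UMI of up to 4.35%, counting error only, and does not limit the share of cells that express the gene. Leydig markers, summed over 10 genes, were at 160, 573 and 113 CPM in the smoking sums and 194, 76.5 and 298 CPM in the control sums. They were highest in the 2 libraries with most Cxcl1 there, smoking library 2 and control library 3. But control library 1, above smoking library 1 in these markers, had no Cxcl1 UMI. In smoking library 2, 1 barcode held 10 of the 16 Cxcl1 UMIs. In control library 3, 12 of 14 lay in sub-cluster 5, described below as rich in MHC class II RNA. The part of Leydig RNA in the macrophage Cxcl1 values was not tested.

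All 7 members passed the filter on low counts in macrophage-like sums. There edgeR called 0% of the 5393 genes tested (0 genes), although 248 had an unadjusted p below 0.05, while DESeq2 called 0 genes (85 unadjusted) and limma-voom called 0 (241 unadjusted). None of the 4 members tested passed.

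The level of a gene in a sum can come from many cells or from few. Ccl8 was carried unevenly by single barcodes, and the plot of its UMIs by barcode shows the spread. Barcodes with at least 10 Ccl8 UMIs numbered 7 of 57, 33 of 77 and 21 of 66 in smoking libraries and 2 of 69, 3 of 60 and 8 of 81 in control libraries. These counts were not adjusted for depth, so they also follow the UMIs per barcode. The highest single barcode had 59, 149 and 198 UMIs in smoking libraries and 17, 29 and 92 in control libraries. The 5 highest barcodes held 37.4% of the Ccl8 UMIs of smoking library 2, but 65.2% of those of smoking library 1.

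**Figure D3:**
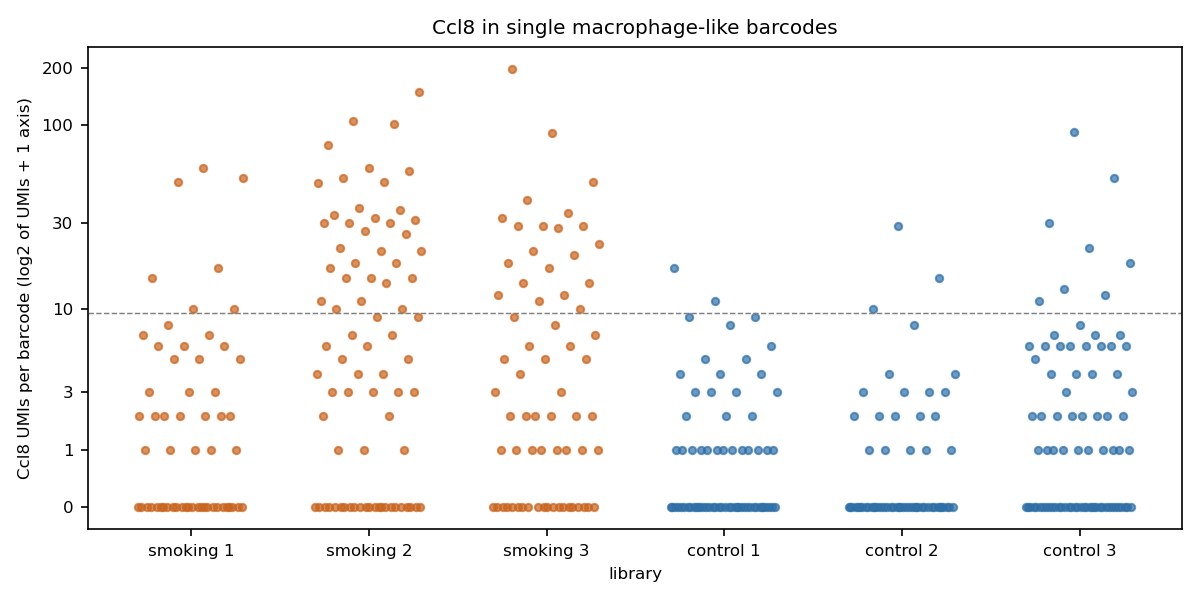
Ccl8 UMIs in each macrophage-like barcode (vertical axis, log2 of UMIs + 1, not adjusted for depth) by library, with smoking libraries on the left. The dashed line lies just under 10 UMIs. Smoking libraries 1 to 3 have 7, 33 and 21 barcodes above the line, and control libraries 1 to 3 have 2, 3 and 8.

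At a common depth of 1500 UMIs per barcode, the share of macrophage-like barcodes with a Ccl8 UMI was 40.4%, 62.0% and 56.3% in smoking libraries and 27.8%, 21.8% and 39.3% in control libraries. Unthinned, the shares were 54.4%, 70.1% and 69.7% in smoking and 44.9%, 33.3% and 55.6% in control libraries, and smoking library 1 then lay below control library 3. The Ccl7 share overlapped between the groups, at 18.6%, 9.56% and 11.8% in smoking and 11.1%, 9.06% and 11.7% in control libraries. In smoking libraries 2, 3 and 3 barcodes had at least 10 Ccl7 UMIs, and in control libraries none did, with a highest value of 9. These counts were not thinned.

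Leaving out the 3 barcodes with most UMIs of the gene in each library gave Ccl8 levels of 540, 2482 and 1368 CPM in smoking and 263, 184 and 583 CPM in control libraries. Smoking library 1 then lay below control library 3. For Ccl7 the same step gave 208, 79.7 and 65.4 CPM in smoking and 87.8, 62.1 and 125 CPM in control libraries, and the groups overlapped.

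No difference in thinned share of the tested members reached the smallest p of the design. The share with a Ccl2 UMI was 30.0% ± 10.3 in smoking and 25.5% ± 0.72 in control libraries (SD, n = 3, exact permutation p = 0.9). The share for Ccl24 was 13.8% ± 12.1 and 18.2% ± 4.19 (exact permutation p = 0.6), and for Pf4 58.5% ± 3.55 and 60.5% ± 9.89 (exact permutation p = 0.8). Ccl6 was seen in 2.28% ± 1.24 and 2.73% ± 0.72 (exact permutation p = 0.6). Unthinned, these differences were 4.99, -7.36, 0.69 and 2.02 percentage points for Ccl2, Ccl24, Pf4 and Ccl6, so those of Pf4 and Ccl6 changed sign.

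The content of the macrophage-like sums differed between libraries in ways that bear on the CPM. Summed over 13 macrophage markers, the sums held 26341, 23677 and 21075 CPM in smoking libraries and 21864, 18599 and 21695 CPM in control libraries. Elongating spermatid markers (12 genes, all detected) held 43724, 54586 and 101832 CPM in smoking and 51633, 58989 and 48981 CPM in control libraries, highest in smoking library 3. The sum of smoking library 3, 371866 UMIs, included the largest macrophage-like barcodes, of 43869 and 32314 UMIs. Their part in its spermatid RNA was not tested. Per 1000 UMIs of the macrophage markers, Ccl8 was at 41.7, 135 and 104 in smoking and 17.0, 21 and 46.6 in control libraries, so that smoking library 1 fell below control library 3, while Ccl7 was at 11.6, 9.02 and 13.1 and at 6.78, 5.63 and 8.46, without overlap.

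The macrophage-like cluster was split into 5 sub-clusters, numbered by size, and the dot plot by sub-cluster gives the members in each. Ccl8 was almost absent from sub-cluster 5, whose 62 barcodes were led by Il1b and the MHC class II genes Cd74 and H2-Aa (12710 and 4901 CPM): it had 1 Ccl8 UMI and 2 Ccl24 UMIs there, but 80 Ccl2 UMIs. Retnla was also among its leading genes, but its 377 UMIs were all in 1 barcode, of control library 3. The same sub-cluster held 460 of the 741 macrophage UMIs of Ccl4, 665 of 1061 of Cxcl2 and 27 of 30 of Ccr2, the receptor of Ccl2 and Ccl7. Sub-cluster 2, with 83 barcodes led by Vsig4, Cd209f, F13a1 and Folr2 among others and little MHC class II RNA (Cd74 at 212 CPM), also with the Leydig genes Insl3 and Ptgds among its leading genes, had 2252 CPM of Ccl8, 282 of Ccl7, 590 of Ccl2 and 261 of Ccl24. Sub-cluster 1, with 113 barcodes led by Ccl12, Ccl7 and Cebpd, had 1578 CPM of Ccl8 and 376 CPM of Ccl7.

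**Figure D4:**
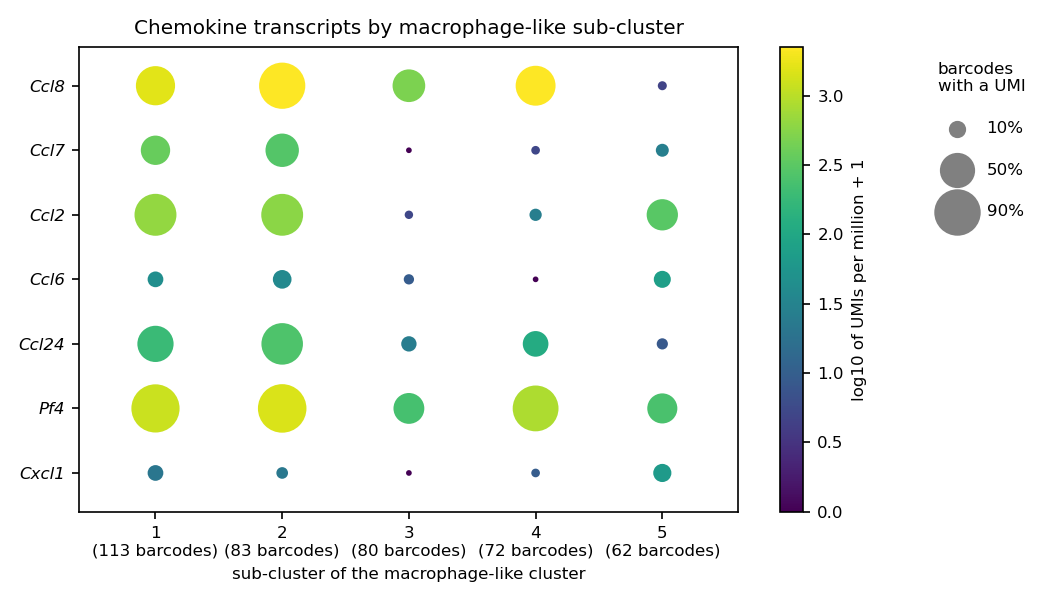
Chemokine transcripts in the 5 sub-clusters of the macrophage-like cluster, over all 6 libraries. Dot area follows the percent of barcodes with a UMI and colour the log10 of CPM + 1; Ccl8 is seen in 89.2% of sub-cluster 2 and 1.61% of sub-cluster 5.

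Sub-clusters 3 and 4 had few UMIs per barcode (medians of 2190 and 2713, against 5298 and 7098 in sub-clusters 1 and 2). Their leading genes were of elongating spermatids and, in sub-cluster 3, also Ccl5, Igkc and Cd3d of lymphocytes. In sub-cluster 4 Ccl8 was at 2219 CPM and Pf4 at 872 CPM, while Ccl7 had 1 UMI and Ccl2 6 UMIs. The immediate early genes Fos and Egr1 showed the same gap, at 45.9 and 58.4 CPM in sub-cluster 4 and 1187 and 1209 CPM in sub-cluster 2. Sub-cluster 3 held 517 CPM of C1qa, against 5060 in sub-cluster 2, and had 488 CPM of Ccl8 and no Ccl7 UMI.

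The mix of sub-clusters differed between libraries, with 5, 16 and 5 barcodes of sub-cluster 5 in smoking libraries and 4, 15 and 17 in control libraries. Within sub-cluster 1, Ccl8 was at 761, 3966 and 3100 CPM in smoking and 380, 220 and 1190 CPM in control libraries. Within sub-cluster 2 it was at 1577, 3942 and 3230 CPM in smoking and 384, 1039 and 1633 CPM in control libraries. Within sub-cluster 4 it was at 589, 5186 and 2278 CPM in smoking and 464, 453 and 973 CPM in control libraries, with 2 barcodes in smoking library 1. In each of these 3, smoking libraries 2 and 3 lay above every control library and smoking library 1 lay below control library 3. Sub-cluster 3, with 118 Ccl8 UMIs, differed, at 298, 1656 and 333 CPM in smoking and 429, 294 and 284 CPM in control libraries. There smoking libraries 1 and 3 lay below control library 1. Ccl7 overlapped between the groups in both sub-clusters that carried most of it, at 198, 578 and 1064 CPM in smoking and 255, 168 and 116 CPM in control libraries in sub-cluster 1, and at 460, 128 and 156 CPM in smoking and 90.3, 233 and 434 CPM in control libraries in sub-cluster 2. Without sub-clusters 3 and 5 the log2 folds in the sums were 1.88 (SE 0.27) for Ccl8, 0.80 (SE 0.22) for Ccl7, 0.33 (SE 0.21) for Ccl2 and -0.40 (SE 0.29) for Ccl24.

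Ccl7 and Ccl2, neighbours on chromosome 11, were found in the same barcodes. Of 79 macrophage-like barcodes with a Ccl7 UMI, 71 (89.9%) had a Ccl2 UMI, 77 (97.5%) a Pf4 UMI and 58 (73.4%) a Ccl8 UMI. Of 170 barcodes with a Ccl2 UMI, 41.8% had Ccl7 and 61.8% had Ccl8, where 55.4% of all 410 had Ccl8. Deeper barcodes have more genes detected, so these shares also follow depth. Ccl12, the gene between Ccl7 and Ccl8 apart from Ccl11, had 228 of its 242 UMIs in macrophage-like barcodes, at 167, 116 and 116 CPM in smoking and 62.6, 84.6 and 138 CPM in control libraries. Ccl11 had 5 UMIs in all, none in macrophages.

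Over the 30 clusters of all retained barcodes, the genes outside the 7 members most like each member in log2 CPM were Ccl3 for Ccl8 (Pearson r = 0.968), Tnf for Ccl7 (0.976), Dab2 for Ccl2 (0.974), Laptm5 for Ccl6 (0.987), Fcrls for Ccl24 (0.989), Tnf for Pf4 (0.973) and Tshz2 for Cxcl1 (0.977). Next came Wfdc17 and Tnf for Ccl8, Tyrobp and Ccl3 for Ccl7, P2ry6 and Pid1 for Ccl2, Cd300c2 and Cybb for Ccl6, Ly86 and P2ry12 for Ccl24, Cybb and Cd300c2 for Pf4, and Cebpd for Cxcl1. The 6 macrophage members correlated with each other at 0.84 to 0.98, with Ccl8 and Ccl7 at 0.979, above any gene just named for either, and Cxcl1 with them at 0.23 to 0.53. The clusters share their libraries, and 1 cluster, the macrophage-like one, sets most of the values of the 6.

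Cxcl1 (KC), a neutrophil attractant that acts through Cxcr2, marked the stroma. Its level over the 6 libraries was 199 ± 101 CPM in a Leydig-like cluster of 166 deeply counted barcodes (median 16156 UMIs), 123 ± 131 in mesenchymal-like, 114 ± 67.6 in endothelial-like and 89.9 ± 52.8 in peritubular-myoid-like barcodes (SD, n = 6). It was 21.4 ± 16.9 CPM in macrophage-like barcodes, 2.32 ± 2.1 in Sertoli-like barcodes and 0.154 ± 0.11 in germ cell classes (SD, n = 6). The 4 stromal classes overlapped one another between libraries, as their spread shows. A second Leydig-like cluster of 281 barcodes with a median of 2459 UMIs had 13 Cxcl1 UMIs, or 16.8 ± 14.0 CPM, so the first held 710 of the 723 Leydig UMIs.

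**Figure D5:**
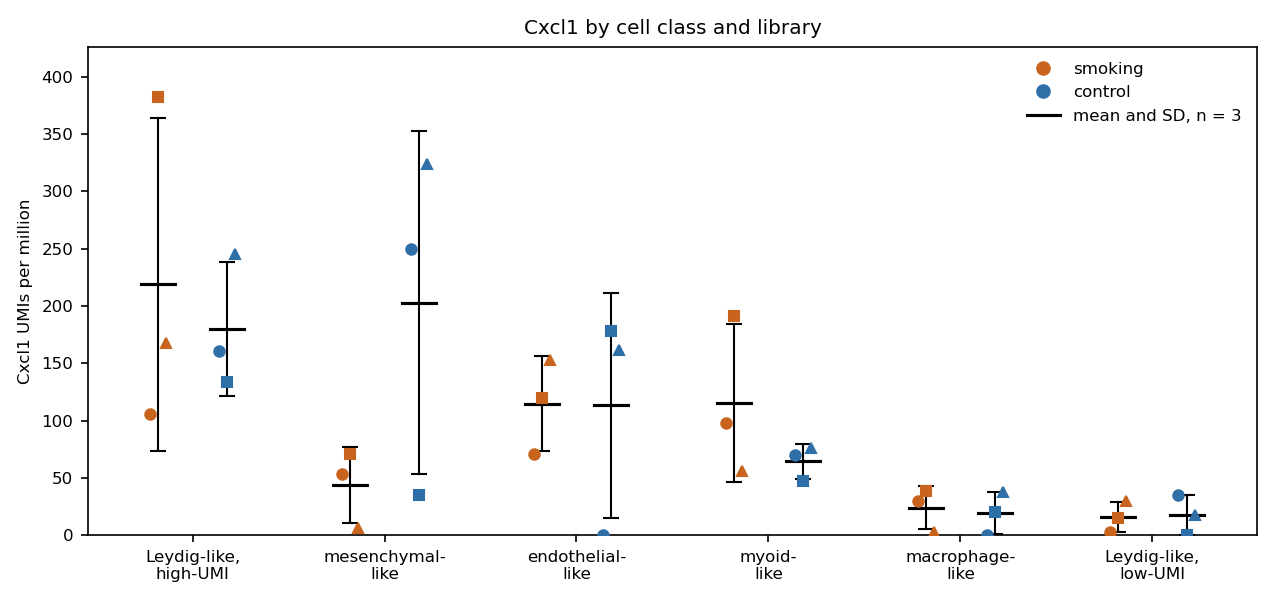
Cxcl1 CPM (vertical axis, from 0) by cell class, with smoking left of control in each class; circles, squares and triangles are libraries 1, 2 and 3 of a group, lines are means and bars SD (n = 3). Smoking library 2 is the highest in the deeply counted Leydig-like cluster, at 383 CPM, and control libraries 1 and 3 are the highest in mesenchymal-like barcodes.

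In that deeply counted Leydig-like cluster, Cxcl1 was at 106, 383 and 168 CPM in smoking libraries and 160, 133 and 246 CPM in control libraries. Smoking library 2 was the highest and smoking library 1 the lowest, so the groups overlapped. The barcodes behind them numbered 15, 51 and 25 in smoking and 25, 18 and 32 in control libraries, and 60.0%, 76.5% and 64.0% of them had a Cxcl1 UMI in smoking libraries, against 60.0%, 38.9% and 65.6% in control libraries.

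In mesenchymal-like barcodes Cxcl1 was at 53.3, 71.1 and 6.28 CPM in smoking libraries and 250, 35.1 and 324 CPM in control libraries, from 12, 20 and 1 UMIs against 53, 4 and 68. Control libraries 1 and 3 stood far above the rest, but control library 2 lay below smoking libraries 1 and 2, so the groups overlapped. The log2 fold was -2.15 (SE 0.48, edgeR), and 1 barcode of control library 3 held 36 of its 68 UMIs. Of 13 mesenchymal markers, 5 were likewise highest in control libraries 1 and 3 (Dpt, Lum, Col1a1, Col1a2 and Col3a1), and 8 were not. Among the 5, Dpt was at 40.0, 3.56 and 6.28 CPM in smoking and 170, 0 and 100.05 CPM in control libraries, and Lum at 129, 114 and 44.0 CPM and at 490, 17.6 and 143 CPM. Mgp went the other way, at 2967, 3040 and 3028 CPM in smoking and 2143, 2493 and 1944 CPM in control libraries. The part of the mix of mesenchymal cells in the Cxcl1 values was not tested.

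Cxcl1 was the only one of the 7 members that passed the filter on low counts in mesenchymal-like sums, where edgeR called 0% of 4015 genes (292 at an unadjusted p under 0.05), DESeq2 0 (114 unadjusted) and limma-voom 0 (296 unadjusted). Its groups overlapped there, whereas 12.3% of the genes tested had no overlap, 5.58% higher and 6.67% lower in smoking libraries. In endothelial-like barcodes Cxcl1 was at 70.6, 120 and 153 CPM in smoking and 0, 179 and 161 CPM in control libraries, with 6 barcodes in control library 1. In myoid-like barcodes it was at 98.0, 192 and 56.3 CPM in smoking and 69.9, 47.4 and 76.1 CPM in control libraries.

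Sums over all retained barcodes need no cell class, but in them fewer cells of a type and less RNA per cell cannot be told apart. Ccl8 was at 6.11, 23.9 and 12.3 CPM in smoking libraries and 3.28, 2.97 and 7.73 CPM in control libraries. Smoking library 1 lay below control library 3, unlike in macrophage-like sums, and the log2 fold was 1.73 (SE 0.50). Ccl7 was at 1.77, 1.69 and 1.53 CPM in smoking and 1.52, 0.844 and 1.42 CPM in control libraries, with a log2 fold of 0.58 (SE 0.24), or 0.36 without control library 2. Cxcl1 was at 1.54, 9.56 and 1.76 CPM in smoking and 3.96, 2.74 and 5.63 CPM in control libraries. Smoking library 2 alone was above the control range, the other two smoking libraries were below it, and the log2 fold of 0.19 (SE 0.61) was -1.10 without that library and -0.24 by limma-voom.

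Among tested members, Pf4 was at 7.1, 6.85 and 4.51 CPM in smoking and 9.26, 8.03 and 7.27 CPM in control libraries, with no overlap and a log2 fold of -0.23 (SE 0.15, edgeR adjusted p = 0.509). Ccl2 had a log2 fold of 0.13 (SE 0.25, edgeR adjusted p = 0.854), Ccl6 -0.96 (SE 0.60, 0.499) and Ccl24 -0.56 (SE 0.42, 0.57), with overlap in each. Pf4 and Ccl7 were thus 2 of 7 members without overlap, where 27.6% of the 18989 genes tested had none, 5.35% higher in smoking libraries, as Ccl7 was, and 22.2% lower, as Pf4 was. All 7 members passed the filter, and edgeR called 0% of the genes (2655 at an unadjusted p under 0.05) and limma-voom 0 (2602), while DESeq2 called 437 of the 2331 genes for which it gave an adjusted p, 18.7% (427 higher and 10 lower in smoking libraries), and gave none for any of the 7 members.

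Most other chemokine genes named here were found in macrophages, in the stroma or in shares near those of all UMIs. Germ cell classes held 58.4% of all UMIs and unnamed clusters 33.0%. Ccl27a had 56.3% of its 133491 UMIs in germ cell classes and 38.9% in unnamed clusters, near those shares. Ccl25, Ccl17, Ccl28, Cxcr5 and Ccr6 had 51.5% to 64.4% of theirs in germ cell classes, also near the share of all UMIs. Ccl22 departed from these shares, with 71.5% of its 1074 UMIs in unnamed clusters, 25.1% in germ cell classes and none in macrophage-like barcodes. Among macrophage chemokines, Ccl3 had 455 of 474 UMIs in macrophage-like barcodes, Ccl4 741 of 902 and Cxcl2 1061 of 1129. The stromal ligands were Cxcl12, which holds Cxcr4-bearing cells in place, with 1480 of 2191 UMIs in endothelial-like and 399 in Leydig-like barcodes, Ccl21a with 1412 of 1756 UMIs in endothelial-like barcodes, and Cxcl14 with 56 of 60 UMIs in mesenchymal-like barcodes. Cxcl10, an interferon-induced ligand, had 184 of 458 UMIs in Leydig-like and 140 in endothelial-like barcodes. These genes were chosen after their values were seen.

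The receptors of the members were sparse in macrophage-like barcodes. Ccr1, the receptor of Ccl6, had 45 UMIs, of which 39 were in macrophage-like barcodes. Ccr2 had 30 of 1602 UMIs in macrophage-like barcodes, 575 in germ cell classes and 931 in unnamed clusters. With the libraries pooled, its level was highest in macrophage-like barcodes, at 15.1 CPM, against 9.52 in unnamed clusters and 3.32 in germ cell classes. Ccr8 had 1 UMI, Ccr3 17 and Cxcr2 27, with none in macrophage-like barcodes. The scavenging receptor Ackr3 had 97 of 202 UMIs in endothelial-like barcodes, and Ackr1 had 3 UMIs, all there. These receptors too were chosen after their values were seen.

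No gene of 11 lists passed the threshold in macrophage-like sums, where the median log2 fold of all 5393 genes was 0.01. Of the other CC chemokines 4 of 16 were tested, with a median log2 fold of 0.34, and of the other CXC, CX3C and XC chemokines 2 of 14, with a median of 0.20. Of the CC chemokines Ccl4 had the highest level (424 ± 220 CPM in smoking and 281 ± 157 in control libraries), with a log2 fold of 0.65 (SE 0.34, edgeR adjusted p = 0.958). Ccl3 had 0.20 (SE 0.33), Ccl27a -0.02 (SE 0.22), Cxcl2 -0.07 (SE 0.42) and Cxcl16 0.46 (SE 0.27). Of the chemokine receptors 2 of 18 were tested, the fractalkine receptor Cx3cr1 (log2 fold 0.03, SE 0.18) and Cxcr4 (0.28, SE 0.33), and of the atypical receptors 1 of 5, Ccrl2 (0.24, SE 0.40).

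The other lists ranged in median log2 fold from -0.31 to 0.47. MHC class II genes (6 of 7 tested) had a median log2 fold of 0.47, and Cd74, the invariant chain of class II, had 2783, 4855 and 920 CPM in smoking and 731, 2654 and 2884 CPM in control libraries, with overlap. Resident macrophage genes (12 of 14) had 0.20, interferon response genes (5 of 14) 0.31, inflammatory and regulatory cytokines (3 of 13) 0.05, and the single monocyte gene tested of 8, Itgam, -0.31. Genes of the NF-kB pathway, a main activator of chemokine genes (9 of 16), had a median of -0.10, and immediate early genes (15 of 15) -0.11. Nfkbia, the inhibitor that NF-kB itself induces, had a log2 fold of 0.04 (SE 0.19), and Fos -0.22 (SE 0.18). Sod2 was the only named gene of these lists without overlap, at 122, 141 and 134 CPM in smoking and 119, 96.6 and 117 CPM in control libraries (log2 fold 0.33, SE 0.21, edgeR adjusted p = 0.958). Smoking library 1 lay just above control library 1. Of all 5393 genes tested, 11.2% had no overlap, 3.08% higher in smoking libraries.

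In mesenchymal-like sums no gene of these lists passed either. Gas6, of the resident macrophage list, was the only gene named by rule there without overlap. It was at 88.8, 49.8 and 119 CPM in smoking and 231, 158 and 133 CPM in control libraries (log2 fold -1.09, SE 0.31, edgeR adjusted p = 0.341). Of all 4015 genes tested there, 12.3% had no overlap. Cxcl12 was at 160, 224 and 201 CPM in smoking and 179, 184 and 148 CPM in control libraries (log2 fold 0.24, SE 0.22, edgeR adjusted p = 0.86). Of the NF-kB list 5 of 16 genes were tested, with a median log2 fold of -0.32, and of the immediate early genes 14 of 15, with a median of -0.28, where the median of all genes was -0.02. Nfkbia was at 155, 160 and 145 CPM in smoking and 311, 114 and 195 CPM in control libraries. Fos was at 1501, 1529 and 1137 CPM and at 2638, 1308 and 1925 CPM. Both were highest in control libraries 1 and 3 as Cxcl1 was. Among the other genes named by rule from these lists, Jun was too, but Vcam1, Sod2 and Junb were not. Vcam1 was highest in smoking library 3 (459 CPM) and Sod2 in control library 2 (211 CPM). Junb was higher in smoking library 1 (1381 CPM) than in control library 3 (1220 CPM). Any link between these genes and Cxcl1 was not tested.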

How the data were processed

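The deposited matrices hold unnormalised UMI counts, by gene and by barcode, for barcodes already called as cells. Per the file headers Cell Ranger 3.1.0 wrote the matrices, but 7.1.0 is the Cell Ranger version in the submitters' processing notes, beside build mm10 and CASAVA 1.8, so the version behind the counts is unsettled. Libraries used 10x Genomics 3′ v2 chemistry, per the labels' protocols, so a count measures one end of a transcript and levels were compared within a gene. The members and lists were chosen with earlier results of these data known.

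Barcodes over 20% mitochondrial UMIs (2459 of 54253) and the highest doublet scores at 0.8% per 1000 barcodes (3935, with 71 in the macrophage-like cluster) were removed. Counts per 10000 of 2000 variable genes gave 30 principal components and 20 neighbours, clustered with leidenalg 0.10.2 at resolution 1 (sub-clusters at 0.5) in Python with numpy 2.4.6. A cluster was named from fixed markers if 3 or more had a log2 fold of at least 1 and were seen in 20% of its barcodes, if no other list had as many, and if its top 10 genes by fold held at least 1 of its markers and no more of another list. Names carry "-like" as no deposited annotation was used.

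UMIs were summed per class and library, and smoking was compared with control by edgeR 4.0.16 (quasi-likelihood, TMM, filterByExpr, Benjamini-Hochberg adjusted p under 0.05 over all genes tested). CPM in the text is unscaled by TMM, so a small fold can differ in sign from the ratio of CPM means. SE is the absolute log2 fold over the square root of F. Shares were thinned to 1500 UMIs per barcode and compared by exact two-sided permutation over 20 assignments. Alternatives were DESeq2 1.42.0, limma-voom 3.58.1, DESeq2 size factors, no filter, resolution 2, a gate of 5 class markers per barcode, doublet calls kept, a mitochondrial limit of 10%, and each library left out. Levels per macrophage-marker UMI, without the 3 top barcodes, and without sub-clusters 3 and 5 were added after seeing the data. Every macrophage-like barcode had at least 1500 UMIs, so none was left out in thinning. Fits were also run on simulated counts with 200 changed genes and a common dispersion. The changed genes were drawn from better counted ones, so that run does not speak for members with few UMIs. All members are named; of each list, up to 4 genes past the threshold, else the 3 highest in CPM. One gene like Cxcl1 is not reported here. Gene positions are from GENCODE M21 (GRCm38, which is mm10) and promoters from RefSeq. Intervals and floors cover counting error only.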

Additional observations from a re-analysis of the deposited data

How the results depend on the processing

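Counts of genes called moved most with the filter and the tool. In macrophage-like sums edgeR called 0 genes, 16 without the filter on low counts, 2 with the marker gate and 6 without sub-clusters 3 and 5 (chosen after seeing the data), and 0 to 7 with 1 library left out. In mesenchymal-like sums it called 0 genes, 34 without the filter, 5 with doublet calls kept and 0 to 22 with 1 library left out, with 22 without control library 2 and 2 without control library 1. Over all barcodes it called 0, 1 without the filter and 0 to 8 with 1 library left out, and DESeq2 called 437. No gate fit was possible for mesenchymal-like barcodes, with 2 to 8 per library. Resolution 2 gave the same macrophage-like and mesenchymal-like barcodes. The cause was not tested for any of these changes.

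Ccl8 and Ccl7 kept a positive log2 fold under every alternative run in macrophage-like and all-barcode sums, with 1.59 to 2.59 and 0.73 to 1.13 in macrophage-like sums with 1 library left out. As both were picked on this contrast in the same libraries, the kept sign supports nothing. Pf4, at 0.03, was -0.029 with doublet calls kept, -0.18 with the gate, -0.011 without sub-clusters 3 and 5 and -0.15 to 0.12 with 1 library left out. With 1 library left out, Ccl6 ranged from -1.55 to 0.041, Ccl24 from -1.37 to 0.093 (past the threshold at -1.37, without smoking library 3), Ccl2 from 0.04 to 0.69 in macrophage-like sums, and Ccl2 from -0.22 to 0.29 over all barcodes.

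Differences in thinned share, in percentage points, turned for Ccl2 with the gate (-3.89), for Ccl6 unthinned (2.02) and with the gate (2.06), and for Pf4 unthinned (0.69). With 1 library left out they ranged from -1.44 to 8.13 for Ccl2, -1.04 to 0.20 for Ccl6, -6.93 to 2.96 for Pf4, -11.3 to -0.04 for Ccl24, 18.7 to 29.5 for Ccl8, 0.08 to 4.6 for Ccl7 and -1.15 to 0.89 for Cxcl1. The share of macrophage-like barcodes differed by 0.0715 points with the gate, against -0.0756, and by -0.147 to -0.00529 with 1 library left out, and that of mesenchymal-like barcodes by -0.0192 with the gate, against 0.126, and by 0.0286 to 0.219. No paired analysis was possible because the labels give the groups no shared replicate numbers: numbers 1 to 3 follow accession order and only name libraries.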
